A study of Homo sapiens with 32 samples.

Results

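The extended major histocompatibility complex (MHC) locus on the short arm of chromosome 6 was described in the maps of uracil-enriched DNA regions of 15 libraries. The locus was taken as kb 28500 to 33500 of chromosome 6 (GRCh38), and every deposited region that overlapped it was a member, which gave 4052 of 2009008 regions on chromosomes 1 to 22, X and Y. The locus held 0.170% of the known bases of these chromosomes, 0.202% of all regions and 183 protein-coding genes among 425 annotated genes. Its GC content was 44.9% against 40.9% genome-wide. U-DNA-Seq pulls down uracil-containing fragments of sonicated genomic DNA with a catalytically inactive uracil-DNA glycosylase carrying a FLAG tag, and sequences them beside the input DNA. A region is a run of 100 bp bins in which the smoothed log2 ratio of enriched to input coverage passed a threshold set for that library.

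All HCT116 cells came from a human colorectal carcinoma line deficient in mismatch repair (MMR), apart from those named MMR, a derivative made MMR proficient by an added chromosome 3 carrying hMLH1. Non-treated libraries were wild type cells without transgene (WT), cells stably expressing the uracil-DNA glycosylase inhibitor UGI together with EGFP (NT_UGI) and the same in the MMR proficient background (NT_UGI_MMR), with 2 biological replicates each. Drug-treated libraries were UGI-expressing cells after 48 h of 20 µM 5-fluoro-2′-deoxyuridine (5FdUR_UGI and 5FdUR_UGI_MMR) or 100 nM raltitrexed (RTX_UGI and RTX_UGI_MMR), again with 2 replicates each. UGI had been introduced by retroviral transduction and the cells sorted for fluorescence, no drug-treated library lacked UGI, and non-treated wild type K562 leukemia cells gave a single library. The measurements were made on bulk DNA, so more cells with uracil and more uracil per cell cannot be told apart. The paper states that the method also detects fluorouracil in DNA and that 5FdUR leads to its direct incorporation. Uracil and fluorouracil therefore cannot be told apart in the 5FdUR libraries.

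The MHC is a gene-dense segment central to immune recognition. Class I genes (HLA-B, HLA-C and their relatives) encode molecules that show peptides from inside the cell to cytotoxic T cells, class II genes (HLA-DR, HLA-DQ, HLA-DP) encode those that show engulfed antigen to helper T cells, and the class III segment between them holds complement, tumor necrosis factor and many housekeeping genes. Both drugs, the nucleoside analog 5FdUR and the antifolate raltitrexed, inhibit thymidylate synthase, which lowers dTTP and lets DNA polymerases place dUMP opposite adenine, and UGI blocks the glycosylase that would remove it.

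The following 300 base stretches of the GRCh38 plus strand are the centers of the places where the largest rise and the highest log2 values of the locus were found, and show what kind of DNA these were. Capitals mark CpG dinucleotides, which were few in each. The first lies in an intron of TRIM10 (chr6:30154851-30155150, GC 47%), in the 10 kb window with the largest rise after drug treatment, and was covered in 7 of 8 drug-treated and 0 of 6 non-treated libraries. The second (chr6:32909301-32909600, GC 36%) is the center of the region with the highest log2 value of a drug-treated library, between TAP1 and HLA-DMB, and was covered in all 4 RTX libraries, 0 of 4 5FdUR libraries and 2 non-treated libraries. The third (chr6:32380001-32380300, GC 26%) is the center of the region with the highest log2 value of a non-treated library, near BTNL2, and was covered in all 6 non-treated libraries, all 4 RTX libraries and 0 of 4 5FdUR libraries.
TRIM10 intron, largest rise: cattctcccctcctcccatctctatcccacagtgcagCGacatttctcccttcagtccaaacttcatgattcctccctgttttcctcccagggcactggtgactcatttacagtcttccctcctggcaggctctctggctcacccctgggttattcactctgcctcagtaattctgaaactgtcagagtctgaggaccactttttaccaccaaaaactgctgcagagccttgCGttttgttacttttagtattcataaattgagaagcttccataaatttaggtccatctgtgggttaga
between TAP1 and HLA-DMB, highest log2 after drug: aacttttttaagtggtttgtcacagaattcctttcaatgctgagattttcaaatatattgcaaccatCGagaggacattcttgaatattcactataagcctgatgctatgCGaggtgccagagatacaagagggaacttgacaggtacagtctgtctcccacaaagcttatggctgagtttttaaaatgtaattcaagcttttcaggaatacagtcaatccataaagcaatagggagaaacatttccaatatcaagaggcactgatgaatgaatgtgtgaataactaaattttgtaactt
near BTNL2, highest log2 without drug: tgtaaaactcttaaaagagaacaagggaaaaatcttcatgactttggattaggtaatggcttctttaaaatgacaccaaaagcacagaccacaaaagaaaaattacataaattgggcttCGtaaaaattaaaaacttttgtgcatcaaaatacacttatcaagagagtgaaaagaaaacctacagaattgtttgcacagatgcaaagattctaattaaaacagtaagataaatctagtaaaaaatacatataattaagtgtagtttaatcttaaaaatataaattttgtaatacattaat

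Before treatment the MHC locus was poor in uracil-enriched regions, and after either drug it was among the most covered parts of the genome. The covered share, the percent of known bases lying within regions, was 2.92% and 3.41% in WT, 3.12% and 3.62% in NT_UGI and 3.25% and 2.64% in NT_UGI_MMR. It was 56.1% and 37.4% in 5FdUR_UGI, 30.5% and 24.2% in 5FdUR_UGI_MMR, 58.6% and 64.0% in RTX_UGI, 49.4% and 57.9% in RTX_UGI_MMR, and 3.97% in K562. Every drug-treated library lay far above every non-treated one, and the 5FdUR libraries spread more widely than the RTX libraries. The mean was 47.2% ± 14.7 (SD, n = 8) against 3.16% ± 0.35 (SD, n = 6), a difference of 44.1 percentage points (two-sided exact permutation test over 3003 assignments of libraries, p = 0.000666, adjusted p = 0.0014 by Benjamini-Hochberg over 592 windows of 5 Mb). Among these windows 53.5% were called higher and 27.2% lower after drug treatment, and the locus had the seventeenth largest rise, while its GC content ranked 95. The difference from non-treated libraries was 33.9 percentage points for 5FdUR (adjusted p = 0.00616, exact permutation test) and 54.3 for RTX (adjusted p = 0.00554, exact permutation test), with the same 6 libraries as controls. These p-values measure only the spread between these libraries, and the 8 drug-treated libraries stand for 4 conditions. With the condition as the unit, 4 means against 3, the smallest possible p was 0.0286 and the difference of 44.1 was no longer called (adjusted p = 0.0825, exact permutation test).

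The total length of a library's regions was set by its threshold, so each share was also divided by the genome-wide covered share of the same library. The locus then stood at 0.234 to 0.327 of the genome-wide share in the non-treated libraries, at 0.362 in K562, at 1.36 to 3.23 times it in the 5FdUR libraries and at 2.76 to 3.40 times it in the RTX libraries. The number of regions rose from 80–111 per non-treated library to 320–476 per drug-treated library. Their size rose too. The N50, the length at or above which regions hold the middle base of the covered sequence, was 2300 to 3900 bp in non-treated, 6100 to 28400 bp in 5FdUR and 16400 to 40800 bp in RTX libraries. Longer regions were not particular to the locus. The genome-wide N50 was 4900 to 5300 bp in non-treated, 5400 to 20100 bp in 5FdUR and 11300 to 31600 bp in RTX libraries.

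The longest region of the locus was one of 382.2 kb in RTX_UGI replicate 2 (chr6:31331201-31713400), which ran unbroken from HLA-B through the MIC and TNF genes to LY6G6F. The longest of a non-treated library was one of 10.8 kb in NT_UGI replicate 2 (chr6:29316201-29327000), between olfactory receptor genes. The highest single value was 0.64 after drug treatment (RTX_UGI_MMR replicate 1, 30.1 kb, the second sequence above) and 0.59 without it (NT_UGI replicate 2, 3.9 kb, the third sequence).

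**Figure D1:**
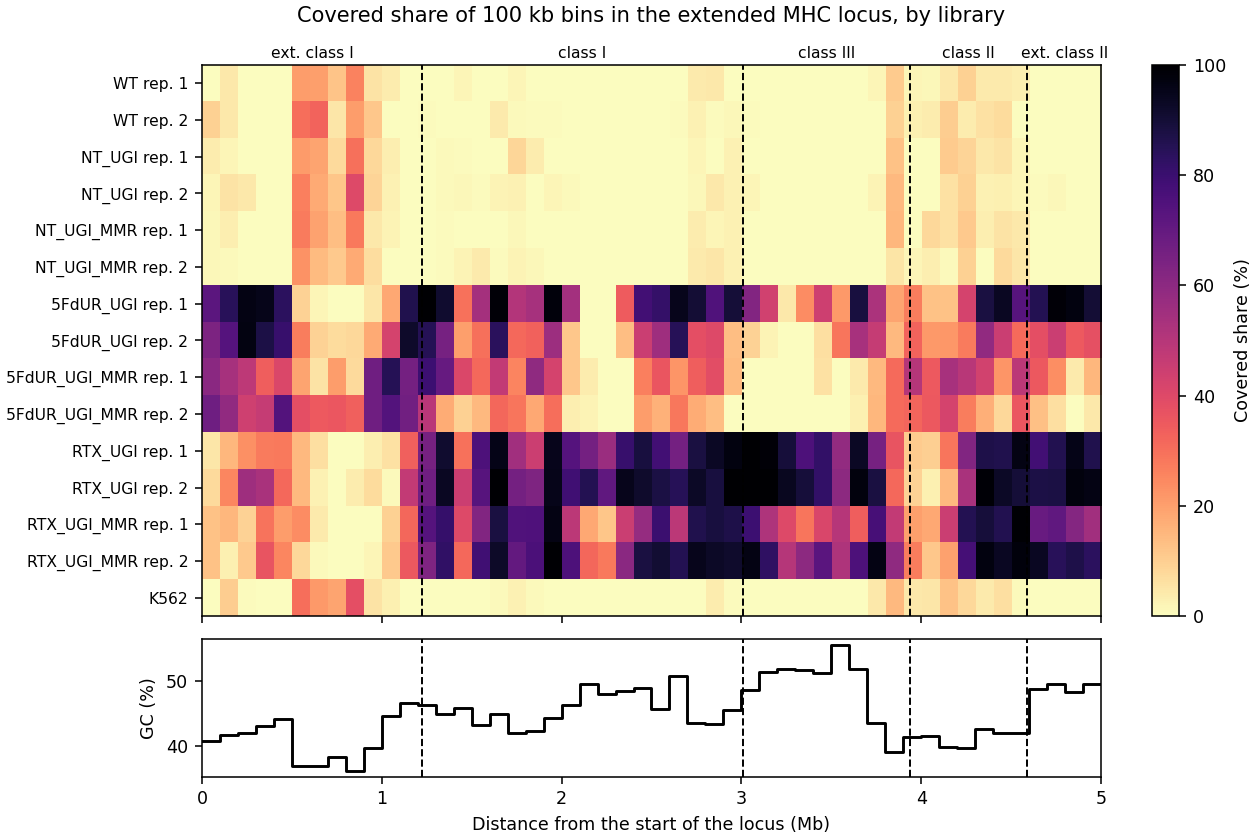
Covered share (%, color) of each of the 50 bins of 100 kb (x axis, distance from the start of the locus in Mb) in each of the 15 libraries (rows), with the GC content (%) of each bin below. Non-treated and K562 rows are low outside the olfactory receptor bins at 0.5 to 0.9 Mb. Drug-treated rows are higher in most other bins, but not in all. RTX rows are low in the bins of GPX6 and UBD, and 5FdUR rows are near 0 in the bins of MDC1. The 5FdUR_UGI_MMR rows are near 0 in the middle of the class III segment where RTX rows are high.

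Along the locus, 39 of the 50 bins of 100 kb were higher and 1 was lower in drug-treated than in non-treated libraries (adjusted p at most 0.05, exact permutation test adjusted over 29432 bins). Across all bins 25.8% were called higher and 32.5% lower. Every drug-treated library lay above every non-treated library in 29 bins and below in 0, against 14.9% and 23.1% of all bins. The median difference was 47.7 percentage points over the 50 bins and 1.25 over all bins. For 5FdUR, 34 bins were higher and 0 lower (25.9% and 27.9% of all bins), and for RTX 44 were higher and 4 lower (31.3% and 42.3%). With a common log2 threshold of 0.35 the bins called for both drugs together were 14 higher and 4 lower, and with the highest log2 values up to 300 Mb per library 24 and 3. The shares of all bins called under these settings are not given here, so these counts do not set the locus apart.

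The largest rise, 78.5 percentage points, was in the bin that holds TRIM31, TRIM40, TRIM10, TRIM15 and TRIM26 (chr6:30100001-30200000). Its non-treated shares ran from 0% to 4.20%, its 5FdUR shares were 98.8%, 83.8%, 47.2% and 32%, and its RTX shares were 88.2% to 99.5%. The bin of HLA-E, a non-classical class I gene, followed with 76.1 percentage points, and that of HLA-G with 73.5. In all 3 bins the drug-treated libraries lay above the non-treated ones without overlap. In 14 bins no non-treated library had a region, and the share over all bins is not given here.

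The locus was then divided at gene boundaries into its 5 conventional subregions, which differed from one another in which drug covered more of them. Extended class I (up to chr6:29722774, where HLA-F begins, GC 41.0%) was covered at 46.9%, 51.0%, 42.7% and 53.0% in the 5FdUR libraries and at 14.4%, 21.5%, 14.4% and 13.4% in the RTX libraries, against 6.16% to 9.75% without drug. There the 5FdUR libraries lay above the RTX libraries without overlap, by 32.5 percentage points on average. In class III (chr6:31511125-32439877, GC 49.0%) the order was the opposite, with 39.4%, 18.5%, 9.02% and 6.64% after 5FdUR, 74.9%, 79.7%, 48.7% and 70.0% after RTX, and 0.775% to 1.81% without drug. The RTX mean was 49.9 percentage points higher, again without overlap.

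Class I (chr6:29722775-31511124, GC 45.7%) was at 37.9% ± 20.2 (SD, n = 4) after 5FdUR and 73.9% ± 7.32 (SD, n = 4) after RTX, with touching ranges since 5FdUR_UGI replicate 1 at 64.7% passed RTX_UGI_MMR replicate 1 at 64.6%. Class II (chr6:32439878-33089696, GC 41.3%) was at 38.5% ± 9.95 (SD, n = 4) and 58.6% ± 5.30 (SD, n = 4), without overlap. Extended class II (from chr6:33089697 to the end of the locus, GC 48.8%) was the most uneven subregion after 5FdUR, with 91.9% in 5FdUR_UGI replicate 1, 38.6% in replicate 2 and 20.3% and 6.85% in 5FdUR_UGI_MMR, while RTX libraries had 65.1% to 92.4%. With the regions as deposited, every drug-treated library lay above every non-treated one in all 5 subregions, also in extended class II, where non-treated libraries had at most 0.439%.

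The split between the drugs was also computed on regions chosen alike in all libraries. When the regions with the highest log2 values up to 300 Mb per library were kept, extended class I remained at 35.6% after 5FdUR and 1.73% after RTX, and class III at 6.83% and 48.7%, both without overlap. The RTX libraries, at 0.581% to 2.45% of extended class I, then lay below all non-treated libraries, at 5.14% to 8.68%, so that the order of RTX and no drug there was the opposite of that in the deposited regions. With a common log2 threshold of 0.35 the extended class I shares, 21.1% and 7.38%, overlapped, since 5FdUR_UGI_MMR replicate 2 then had no region in the locus, and the non-treated libraries, at 3.04% to 8.58%, overlapped with the RTX libraries, at 3.37% to 10.9%.

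Of the 183 protein-coding genes, 88 had a higher and 2 a lower covered share in drug-treated than in non-treated libraries (exact permutation test, adjusted over 20033 genes), against 33.4% and 8.30% of all genes. In 33 genes every drug-treated library lay above every non-treated one and in 0 below, against 15% and 5.11% of all genes. For 5FdUR 50 genes were higher and 0 lower (24.3% and 7.54% of all genes), and for RTX 148 were higher and 2 lower (58.2% and 10.6%). The median difference between drug-treated and non-treated libraries was 50.6 percentage points over the genes of the locus and 26.5 over all genes. In 158 of the 183 genes no non-treated library had a region. The share over all genes is not given here, so this count does not set the locus apart. The count of genes called higher was 0 with a common log2 threshold of 0.35, 12 with the highest log2 values up to 300 Mb per library, 24 with only regions of at least 5 kb and 3 in windows of 2 kb around the gene start. The shares of all genes called under these settings are not given here either. Comparisons of 4 conditions with 3 called no bin and no gene. Their smallest possible p was 0.0286 (exact permutation test). After adjustment a call needed a large part of all bins or genes at that value, so this outcome says little about single bins or genes.

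At the telomeric end, the first 500 kb with the glutathione peroxidase genes GPX5 and GPX6, the SCAN domain gene SCAND3 and TRIM27 was covered mainly after 5FdUR. This stretch, like those named below, was outlined after its values had been seen. It had 86.2% and 80.4% in 5FdUR_UGI, 47.4% and 58.0% in 5FdUR_UGI_MMR, 17.4% to 34.5% in RTX and 0.420% to 2.82% in non-treated libraries. The drugs did not overlap there. GPX6 (chr6:28503296-28528215) rose to 73.5%–94.4% in the 5FdUR libraries, while the RTX libraries had 0%, 12.8%, 18.1% and 9.63% and the non-treated libraries at most 1.20% (adjusted p = 0.0433, exact permutation test). TRIM27 (chr6:28903002-28923988), a tripartite motif protein, was at 0% in all 6 non-treated libraries, at 56.7% to 73.4% after 5FdUR and at 15.7% to 54.3% after RTX (adjusted p = 0.00789, exact permutation test).

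The next 400 kb, chr6:29000001-29400000, hold a cluster of olfactory receptor genes, odorant receptors of the nasal epithelium, and had the highest shares of the locus without drug. This stretch has a GC content of 37.1%, and its share was 16.6% to 24.1% in the non-treated libraries, 27.2% in K562, 2.77%, 12.9%, 13.2% and 35.6% in the 5FdUR libraries and 2.17% to 7.05% in the RTX libraries. All 4 RTX libraries thus lay below all non-treated libraries, whereas 5FdUR_UGI_MMR replicate 2 lay above them. The only bin of the locus called lower after drug treatment was the one of OR14J1, OR5V1, OR12D3 and OR12D2 (chr6:29300001-29400000), which fell by 20.4 percentage points from 27.1% ± 7.79 (SD, n = 6) to 6.66% ± 11.3 (SD, n = 8), with an adjusted p of 0.012 (exact permutation test).

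OR12D3 (chr6:29373423-29375291) was one of the 2 genes called lower, with 100%, 58.9%, 78.6%, 100%, 0% and 100% in the non-treated libraries, 26.8% in 5FdUR_UGI_MMR replicate 2 and 0% in the other 7 drug-treated libraries (adjusted p = 0.016, exact permutation test). The other was OR2J1 (chr6:29099490-29102701), with non-treated shares of 74.8%, 81.3%, 31.2%, 65.4%, 0% and 3.11%, 12.5% in 5FdUR_UGI replicate 1 and 0% in the other 7 (adjusted p = 0.0216, exact permutation test). Of all 15 olfactory receptor genes of the locus 0 were called higher, 2 lower and 13 neither, with a median difference of 4.52 percentage points. Of all genes 33.4% were called higher and 8.30% lower. OR10C1 was fully covered in both 5FdUR_UGI_MMR libraries and at 0% in every other library, and did not pass the test.

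From OR5V1 to the imprinting regulator ZFP57 (chr6:29400001-29700000) 5FdUR coverage was again higher than RTX coverage. The stretch was at 36.3% and 50.6% in 5FdUR_UGI, 72.5% and 69.1% in 5FdUR_UGI_MMR, 13.9% to 18.4% in RTX and 2.13% to 3.80% in non-treated libraries. Over the stretch as a whole both MMR proficient 5FdUR libraries lay above both deficient ones, but its last bin, that of MOG and ZFP57 (chr6:29600001-29700000), went the other way, with 86.0% and 91.9% in 5FdUR_UGI and 65.7% and 66.7% in 5FdUR_UGI_MMR. UBD (chr6:29555515-29559732), which encodes a ubiquitin-like modifier, had 16.3%, 55.0%, 88.1% and 100% in the 5FdUR libraries and 0% in all RTX and non-treated libraries (adjusted p = 0.177 for both drugs together, exact permutation test). GABBR1 (chr6:29555629-29633976), a subunit of the GABA-B receptor, had 30.9%, 47.3%, 92.2% and 82.6% after 5FdUR and 3.32% to 24.4% after RTX, and missed the call for both drugs together (adjusted p = 0.053, exact permutation test). MOG (chr6:29657002-29672372), a myelin surface protein, rose with both drugs, from 0% in all 6 non-treated libraries to 68.3%–100% after 5FdUR and 39%–87% after RTX (adjusted p = 0.00447, exact permutation test). ZFP57 rose as well, from 0% to 63.3% ± 29 (SD, n = 8). The 3 SCAN and KRAB zinc finger genes of the locus, SCAND3, ZNF311 and ZFP57, were all called higher.

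In class I, 30 of 48 genes were called higher and 0 lower, against 33.4% and 8.30% of all genes. The same shares of all genes are the background for each gene list. Neighboring genes can be covered by the same region, so these counts are not counts of independent genes. Of the classical antigen-presenting genes, HLA-B (chr6:31353872-31367067) rose from at most 4.55% without drug to 57.6%, 61.4%, 47.2% and 43.2% after 5FdUR and 95.5%, 100%, 81.1% and 88.6% after RTX (adjusted p = 0.00447, exact permutation test), with RTX above 5FdUR in every library. HLA-C (chr6:31268749-31272130) had 100% in 3 5FdUR libraries, 48.8% in 5FdUR_UGI_MMR replicate 2 and 0%, 22.2%, 1.54% and 100% after RTX (adjusted p = 0.0276, exact permutation test). There the ranges of the drugs overlapped. The bin of 100 kb that holds HLA-C was covered at 86.1% to 94.7% in the same RTX libraries. An effect of read mapping on HLA-B and HLA-C was not tested.

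The non-classical class I genes, whose products engage mainly receptors of natural killer cells, were all 3 called higher, with 0% in every non-treated library. HLA-F had 77.0% to 100% after 5FdUR and 38.9% to 95.8% after RTX (adjusted p = 0.00447, exact permutation test). HLA-E had 55.5% to 100% after 5FdUR and 6.40% to 93.6% after RTX (adjusted p = 0.00902, exact permutation test). HLA-G had 53.5% to 100% after 5FdUR and 83.2%, 100%, 0% and 100% after RTX (adjusted p = 0.016, exact permutation test). MICA and MICB, ligands of a natural killer cell receptor, were both called higher, with means of 46.9% ± 36.6 and 23.6% ± 31.6 (SD, n = 4) after 5FdUR and 84.5% ± 18.3 and 81.6% ± 21.4 (SD, n = 4) after RTX.

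The tripartite motif genes, many of which encode ubiquitin ligases of innate immunity, were all 7 called higher, against 33.4% of all genes. In 6 of them the drug-treated libraries lay above the non-treated ones without overlap, against 15% of all genes. TRIM10 (chr6:30151943-30161211) had the largest difference of all genes of the locus, from 0% in all 6 non-treated libraries to 100% in all 4 5FdUR libraries, 100% in both RTX_UGI libraries and 76.3% and 99.9% in RTX_UGI_MMR (adjusted p = 0.00447, exact permutation test). TRIM40 beside it reached 100% in all 4 RTX libraries and 44.4% to 100% after 5FdUR. The longest stretch covered in all 8 drug-treated libraries, 4.9 kb (chr6:30156301-30161200), also lay in TRIM10.

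In contrast, 200 kb of class I at chr6:30600001-30800000, which overlap 11 protein-coding genes, were nearly free of regions after 5FdUR. The share was 0.1%, 0%, 1.80% and 1.05% in the 5FdUR libraries, 61.1% and 78.2% in RTX_UGI, 15.2% and 29.9% in RTX_UGI_MMR and 0% in all non-treated libraries. MDC1 (chr6:30699807-30717447), a mediator of the DNA damage checkpoint, was at 0% in all 4 5FdUR libraries and at 100%, 78.5%, 28.9% and 44.2% in the RTX libraries. FLOT1, a lipid raft protein, had 0% and 51.3%, 81.8%, 12% and 43.2%. IER3, a short stress-response gene next to them, was the 1 gene of the locus without a region in any HCT116 library.

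Class III showed the widest gap between the drugs. Its gene-dense core, chr6:31500001-32100000 (GC 51.7%), which overlaps 55 protein-coding genes, had 33.4% and 7.78% in 5FdUR_UGI, 1% and 0% in 5FdUR_UGI_MMR, 84.0% and 87.5% in RTX_UGI, 48.5% and 68.9% in RTX_UGI_MMR and at most 0.283% without drug. Of the 69 class III genes 17 were called higher, against 33.4% of all genes, and 52 were not. In the 5FdUR_UGI_MMR libraries 59 of them, or 85.5%, had no region in either replicate, against 33.8% of all genes. In the tumor necrosis factor family TNF (chr6:31575565-31578336) was fully covered in all 4 RTX libraries, at 100% and 54.1% in 5FdUR_UGI and at 0% in 5FdUR_UGI_MMR and in all non-treated libraries (adjusted p = 0.0359, exact permutation test). Its neighbor LTB (chr6:31580525-31582522), lymphotoxin beta, was fully covered in all 4 RTX libraries and at 0% in all 4 5FdUR and all 6 non-treated libraries. AIF1 (chr6:31615217-31617021), a calcium-binding protein of macrophages, had the same values, and no other gene of the locus did. As both drugs enter 1 test, LTB and AIF1 did not pass it (adjusted p = 0.131 for each, exact permutation test), and TNF was the 1 of 3 family members called.

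Further class III genes repeated this order. ABHD16A, a lipase, was at 0% in all 5FdUR libraries and at 100%, 100%, 77.7% and 78.6% after RTX. MSH5, a MutS homolog of meiotic recombination, had at most 0.435% after 5FdUR and 96.5%, 100%, 72.2% and 83.0% after RTX. The histone methyltransferase gene EHMT2 had 30.1% in 5FdUR_UGI replicate 1, 0% in the other 3 5FdUR libraries and 49.6% to 100% after RTX. The 6 listed LY6 family genes and the 3 heat shock HSP70 genes were not called for both drugs together, with median differences of 29.2 and 22.5 percentage points, although LY6G5B was fully covered in all 4 RTX libraries. SKIC2 (chr6:31959116-31969818), an RNA helicase that serves the exosome, was called higher with 100%, 29.9%, 31.9% and 0% after 5FdUR and 100% in all 4 RTX libraries (adjusted p = 0.0211, exact permutation test).

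The complement genes of class III were not called. CFB, factor B, had 100%, 24.1%, 0% and 0% after 5FdUR and 100%, 100%, 37.9% and 100% after RTX (adjusted p = 0.0536, exact permutation test), and C2 followed the same order (adjusted p = 0.0724, exact permutation test). C4A and C4B, near-identical copies, had at most 0.698% and 0.0873% in any library. They lie in the longest gap of the locus, 53.2 kb without a region in any of the 15 libraries (chr6:31982201-32035400, from STK19 to C4B). Reads of mapping quality 0 and blacklisted segments had been removed before the coverage was computed, so a share of 0 in duplicated sequence cannot be told apart from missing reads. The 4 of 500 windows of 10 kb without a region in any library, 0.800% against 7.28% of all windows, all lay in this gap, and the next longest gap was 10 kb (chr6:29327001-29337000).

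Toward class II, AGER (chr6:32180968-32184322), the receptor for advanced glycation end products, rose from 0% to 100%, 100%, 0% and 86.4% after 5FdUR and 47.7% to 100% after RTX (adjusted p = 0.0161, exact permutation test). NOTCH4, a developmental receptor, had 88.7%, 83.6%, 14% and 0% after 5FdUR and 60.8% to 99.7% after RTX (adjusted p = 0.0211, exact permutation test). In both genes an MMR proficient 5FdUR library stayed at 0% like the non-treated libraries.

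**Figure D2:**
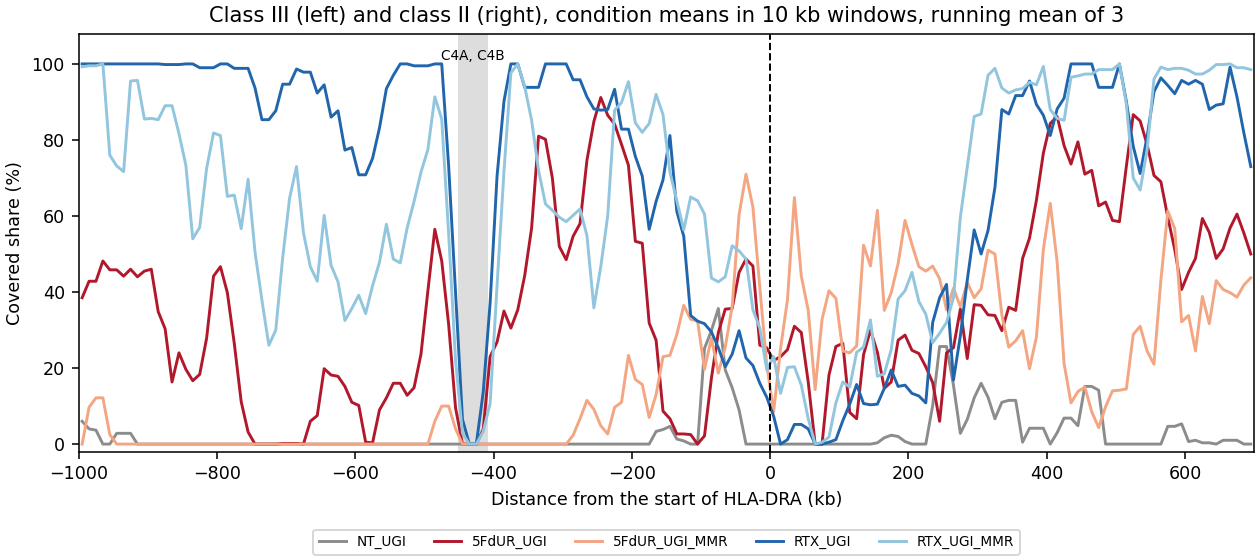
Condition means of the covered share (%, y axis) in 10 kb windows, smoothed over 3 windows, against the distance from the start of HLA-DRA (kb, x axis), with class III to the left and class II to the right. Apart from the gap at C4A and C4B (gray), the RTX_UGI line is high over most of class III, both RTX lines are low at HLA-DR and HLA-DQ and return toward 100% at TAP and HLA-DM, and the 5FdUR_UGI_MMR line is near 0 over most of class III and above RTX at HLA-DR and HLA-DQ.

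In class II 17 of 20 genes were called higher and 0 lower, against 33.4% and 8.30% of all genes, and 3 were not called. Within it 2 neighboring stretches behaved differently. Over HLA-DR and HLA-DQ (chr6:32400001-32700000) the shares were 17.4% and 25.3% in 5FdUR_UGI, 46.1% and 36.5% in 5FdUR_UGI_MMR, 16.5% and 8.90% in RTX_UGI, 27.7% and 19.5% in RTX_UGI_MMR and 2% to 5.63% without drug. Over TAP, HLA-DM and HLA-DP (chr6:32800001-33100000) they were 84.9%, 44.9%, 38.0% and 20.1% after 5FdUR, 89.8% to 96.2% after RTX and 2.43% to 4.47% without drug. The mean after 5FdUR was thus above that after RTX over HLA-DR and HLA-DQ, where single libraries of the drugs overlapped, and below it over TAP, HLA-DM and HLA-DP, where they did not. For 5FdUR the order of the MMR states was also the opposite in the second stretch.

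Among the chains of the class II molecules 6 of 9 were called higher. HLA-DRB1 (chr6:32577902-32589848), the main beta chain of HLA-DR, had 51.9%, 53.1%, 100% and 80.4% after 5FdUR, 0% to 37.2% after RTX and 0% in all non-treated libraries (adjusted p = 0.0276, exact permutation test), and was the 1 class II gene with every 5FdUR library above every RTX library. Its partner chain HLA-DRA had 0%, 91.8%, 0% and 21.3% after 5FdUR and at most 0.445% after RTX, and was not called. HLA-DPA1 and HLA-DPB1 were covered at 94.6% to 100% and 59.9% to 100% after RTX, and at 11.1% to 94.4% and 21.9% to 65.0% after 5FdUR. HLA-DR and HLA-DQ genes differ between cells and from the reference sequence, and the effect of this on read mapping was not tested.

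The genes that load class II molecules, HLA-DMA, HLA-DMB, HLA-DOA and HLA-DOB, were all 4 called higher. HLA-DOA (chr6:33004182-33009591) was fully covered in all 4 RTX libraries and at 100%, 81.2%, 100% and 0% after 5FdUR (adjusted p = 0.0152, exact permutation test). HLA-DMB was also fully covered in all 4 RTX libraries, with 100%, 0%, 65.6% and 4.69% after 5FdUR (adjusted p = 0.0211, exact permutation test). In 15 genes of the locus all 4 RTX libraries were at 100%, and the share over all genes is not given here.

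The 5 genes that supply peptides to class I molecules were all called higher as well. Of these, TAP2, PSMB8, PSMB9 and TAP1 lie in the same bin of 100 kb, with TAP1 within PSMB9 and PSMB8 overlapping it. The same regions can cover several of them, so they are not independent. PSMB8 (chr6:32840717-32844679), a subunit of the immunoproteasome, was at 0% in all 6 non-treated libraries and at 100% in every drug-treated library but RTX_UGI replicate 1 with 75.2% (adjusted p = 0.00447, exact permutation test). The peptide transporter gene TAP1 (chr6:32845209-32853816) rose from 0% to 100%, 95.4%, 95.4% and 28.9% after 5FdUR and 63.8% to 100% after RTX (adjusted p = 0.00656, exact permutation test). Around PSMB8 lay the second longest stretch covered in all 8 drug-treated libraries, 3.1 kb. TAPBP, or tapasin, which bridges the transporter and class I molecules, lies in extended class II and had 100%, 95.9%, 6.06% and 0% after 5FdUR and 59.6% to 97.9% after RTX (adjusted p = 0.0211, exact permutation test).

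Extended class II had 18 of 21 genes called higher and 0 lower, against 33.4% and 8.30% of all genes. SLC39A7 (chr6:33200305-33204439), a zinc transporter of the secretory pathway, had 100%, 100%, 100% and 21.8% after 5FdUR and 100%, 100%, 0% and 67.6% after RTX (adjusted p = 0.016, exact permutation test). RGL2 (chr6:33291654-33298942), an exchange factor for Ral GTPases, had 100%, 80.1%, 61.0% and 0% after 5FdUR and 78.8% to 93.9% after RTX (adjusted p = 0.0168, exact permutation test). PFDN6, a prefoldin subunit that overlaps it, had 100%, 63.7%, 74.7% and 0% and 58.3% to 100% (adjusted p = 0.0161, exact permutation test). Of the 7 listed chromatin and transcription genes the 3 toward the centromere, BRD2, RING1 and DAXX, were called higher, and MDC1, EHMT2, ZBTB12 and PBX2 were not. All non-treated libraries were at 0% in these 7 genes.

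Set side by side, the drugs differed in direction along the locus. Doses differed by design, both drugs share the non-treated controls, and with 4 libraries each the difference was described by whether the libraries overlapped. Regions after 5FdUR may mark fluorouracil as well as uracil, so a difference between the drugs need not be one in uracil alone. Every RTX library lay above every 5FdUR library in 15 of 50 bins and below in 5, against 12.7% and 11.9% of all bins. All 5 bins with 5FdUR above were in extended class I, and 7 of the 15 with RTX above were in class III. Without 5FdUR_UGI replicate 1, the 5FdUR library with the highest share of class III, the counts were 30 and 10, without RTX_UGI replicate 2 the count below was 8, and with bins of 50 kb they were 24 and 12 of 100. The shares of all bins under these settings are not given here, so these counts do not set the locus apart. With fewer libraries, non-overlap is easier to reach in any bin. Within the MMR deficient cells both RTX libraries lay above both 5FdUR libraries in 22 bins and below in 12 (18.9% and 21.1% of all bins), and within the MMR proficient cells in 33 and 12 (24.0% and 48.5%).

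Among the genes, RTX lay above 5FdUR in 37 of 183 (23.3% of all genes) and below in 9 (7.83%). The share above was therefore near that of all genes. Of the 37 genes, 25 were in class III, 10 in class I and 2 in class II, HLA-DOB and HLA-DPA1. The 9 below were GPX6, GPX5, SCAND3, TRIM27, OR2H1, OR2I1P, UBD and GABBR1 in extended class I and HLA-DRB1 in class II. In bases, 257.3 kb were covered in all 4 RTX libraries and in no 5FdUR library, of which 124.3 kb lay in class III, and 84.3 kb in all 4 5FdUR libraries and in no RTX library, of which 80.0 kb lay in extended class I.

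By the mean share of the whole locus, MMR state divided the 5FdUR libraries more than the RTX libraries. With 2 libraries on each side these values are a description. Locus shares of 56.1% and 37.4% in 5FdUR_UGI stood against 30.5% and 24.2% in 5FdUR_UGI_MMR, and 58.6% and 64.0% in RTX_UGI against 49.4% and 57.9% in RTX_UGI_MMR. Both deficient libraries lay above both proficient ones in 27 bins and below in 7 after 5FdUR, while all bins had 19.0% and 35.9%, so that the order in the locus was the opposite of the more common one. After RTX the counts were 21 and 10 (12.2% and 15.5% of all bins), and without drug 7 and 4 (11.5% and 11.9%). By genes the drugs were alike, with 64 of 183 above and 15 below after 5FdUR and 69 and 12 after RTX. The shares of all genes for these counts are not given here. The proficient 5FdUR libraries both had no region in 7 bins (12.2% of all bins) and in 77 of the 183 genes (33.8% of all genes). Of the stretches named above, both proficient 5FdUR libraries exceeded both deficient ones in the stretch from OR5V1 to ZFP57 taken as a whole and over HLA-DR with HLA-DQ. The same order held narrowly in the olfactory receptor cluster, where the nearest libraries had 13.2% and 12.95%. From PPP1R10 to IER3 it held only near 0, with 1.80% and 1.05% against 0.1% and 0%.

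Non-treated libraries differed little. NT_UGI lay above WT in 5 bins and below in 4, against 10.5% and 12.9% of all bins, and the locus share differed by 0.206 percentage points. K562 lay above the range of the 6 non-treated HCT116 libraries in 5 bins and below in 1, against 13.3% and 10.7% of all bins. The bin below held HLA-C, where K562 had no region and the HCT116 libraries had 1.30% to 4.10%. In K562 the highest log2 value of the locus, 0.60, was at the same place near BTNL2 as in NT_UGI replicate 2, and a 2.3 kb stretch there (chr6:32378501-32380800) was covered in all 6 non-treated libraries and K562.

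Base composition went with these patterns differently in each condition. Over the 50 bins, which share a library and neighboring sequence, Pearson's r between GC content and covered share was −0.645 to −0.688 in the non-treated libraries and −0.684 in K562. It was 0.621 and 0.660 in RTX_UGI, 0.184 and 0.441 in RTX_UGI_MMR, 0.219 and −0.0535 in 5FdUR_UGI and −0.427 and −0.578 in 5FdUR_UGI_MMR. Over all 29432 bins the last condition had 0.423 and 0.145, so in the MMR proficient 5FdUR libraries the sign within the locus was the opposite of that genome-wide.

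The same was seen in bins of like GC content. In the 7 bins of the locus with 50% to 56% GC, all gene-rich, the 5FdUR_UGI_MMR mean was 4.52% against 23.3% in the 1550 such bins elsewhere, the 5FdUR_UGI mean was 35.5% against 47.1%, and the RTX mean was 69.4% against 50.8%. In the 11 bins with 40% to 43% GC the 5FdUR mean was 49.8% against 20.6% elsewhere, and the RTX mean 47.5% against 20.5%. Bins of the locus with 43% to 46% GC had 71.7% after RTX against 30.6%. The bases covered in non-treated libraries had a GC content of 34.5% to 35.2% and those covered in drug-treated libraries 43.1% to 46.3%.

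The covered share was then taken separately for coding sequence, introns and sequence outside protein-coding genes. Coding sequence, which has 57.6% GC in the locus, was covered at 1.54% ± 0.530 (SD, n = 6) without drug, 34.9% ± 19.2 (SD, n = 4) after 5FdUR and 60.9% ± 13.7 (SD, n = 4) after RTX. Introns had 2.30%, 35% and 57.2%, and sequence outside protein-coding genes had 3.88% ± 0.332 (SD, n = 6), 37.9% ± 14.5 and 56.8% ± 3.41 (SD, n = 4). The order of coding sequence and sequence outside genes differed between drug-treated libraries. In RTX_UGI the coding share was the higher one in both replicates, with 64.2% and 73.5% against 56.2% and 61.5%, whereas in 5FdUR_UGI_MMR it was the lower one in both, with 26.9% and 13.1% against 30.8% and 25.3%. In 5FdUR_UGI and RTX_UGI_MMR the order differed between the replicates. Without drug every library had less of its coding sequence covered than of the sequence outside genes, since the highest coding share was 2.21% and the lowest share outside genes 3.49%.

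The Jaccard index in the locus, shared over joint covered length, was 0.721 between RTX_UGI replicates, 0.622 in RTX_UGI_MMR, 0.483 in 5FdUR_UGI, 0.291 in 5FdUR_UGI_MMR and 0.195 to 0.306 in the non-treated conditions. It was 0.295 on average (0.12 to 0.57, 16 pairs) between RTX and 5FdUR libraries and 0.0168 between drug-treated and non-treated libraries. The index rises with the share covered, so these values are not on one scale across conditions. All 4 RTX libraries had 1639.4 kb in common, the longest stretch being 48.3 kb beside MICA (chr6:31406001-31454300), and all 4 5FdUR libraries had 286.1 kb, the longest being 12.1 kb over TRIM10 (chr6:30151201-30163300). All 8 shared 61.3 kb, of which 43.5 kb lay in class I and 0 in class III. All 6 non-treated libraries shared 10.3 kb, of which 6.30 kb lay in extended class I. In at least 1 drug-treated library 4640 kb of the 5000 kb were covered.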

How the data were processed

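Uracil-enriched regions were taken from 15 deposited files of single libraries, 2 for each of 7 HCT116 conditions and 1 for K562. Per the labels and the methods, the authors aligned reads to GRCh38 with BWA (0.7.17-r1194), used Picard, SAMtools (1.9-50) and deepTools (3.2.1), removed reads of mapping quality 0 and blacklisted segments, and divided enriched by input coverage in steps of 100 bp to give smoothed log2 ratios. The authors' log2 column has no header, and its lowest value, the threshold of the library, ran from 0.13 to 0.33. No region ended beyond its chromosome in the GRCh38 reference used here, and genes are those of GENCODE 44. Read depth is unknown from these files, so no counting interval is given. Input libraries, coverage tracks and other data were not used here, and the 7 files of merged replicates served as an alternative. Some items of the locus are not reported here.

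Covered shares of known bases were computed in 29432 bins of 100 kb, 20033 protein-coding genes and 592 windows of 5 Mb (each at least 50% known) with Python 3.11.15, NumPy 2.4.6 and pandas 2.3.3. Drug-treated (n = 8) and non-treated (n = 6) libraries were compared by a two-sided exact permutation test of the mean over 3003 assignments (smallest p 0.000333), or 210 for a single drug (n = 4), adjusted over all features by Benjamini-Hochberg and called at 0.05. The script was tested on simulated data. A second call required that libraries did not overlap. Named genes were the 3 with the largest called difference in each direction and subregion, list members, and genes that illustrate a stretch, which were chosen after their values were seen. The locus, the gene lists and the alternatives were chosen with earlier results of these data known, and the stretches and the alternatives for RTX against 5FdUR after seeing the values. The alternatives changed bin size, region length, log2 threshold, total length, scaling, unit, libraries and gene window.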

Additional observations from a re-analysis of the deposited data

Results flagged for a closer look

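Of 36 groups of 4 to 8 libraries examined, 3 had a library that stood apart by Dixon's criterion, and chance alone marks about 1 in 20 groups. The N50 of 5FdUR_UGI replicate 1 in the locus was 28400 bp, and the nearest 5FdUR library had 8700 bp. The extended class I share of RTX_UGI replicate 2 was 21.5%, and the nearest RTX library had 14.4%. The extended class II share of NT_UGI replicate 2 was 0.439%, and the nearest non-treated library had 0.0731%.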

How the results depend on the processing

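The covered share of the locus kept its call in 24 of 27 alternatives, with adjusted p from 0.0013 to 0.0876 (exact permutation test), and no difference between all drug-treated and all non-treated libraries reversed. For RTX alone in extended class I, however, the highest log2 values up to 300 Mb turned the order, with 0.581% to 2.45% in the RTX libraries below 5.14% to 8.68% without drug, against 13.4% to 21.5% above 6.16% to 9.75% with the regions as deposited. The 3 exceptions compare 4 conditions with 3 and have a smallest p of 0.0286: condition means (44.1 percentage points), bases called in both replicates (32.6) and merged files (47.1), under which 0 bins and 0 genes were called in either direction. Bases called in both replicates gave differences of 16.4 in extended class I, 41.7 in class I, 30.6 in class III and 32.7 in class II.

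Bins called were 74 higher and 4 lower of 100 at 50 kb, where RTX lay above 5FdUR in 24 and below in 12, and 22 and 0 of 26 at 200 kb. With regions of at least 5 kb 24 genes were higher and 0 lower. A log2 value of at least 0.35 left 14 bins higher and 4 lower, 0 genes higher and 1 lower, RTX below 5FdUR in 0 bins, and differences of 8.37 in extended class I, 41.4 in class I and 29.5 in class II. The highest log2 values up to 300 Mb left 24 bins higher and 3 lower, 12 genes higher, and differences of 11.5, 38.3, 26.5 and 27.6 from extended class I to class II. Shares divided by the genome-wide share gave 3 bins lower and 16.4 in extended class I and 34.6 in class II.

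RTX alone gave 4 bins lower and 148 genes higher, with differences of 7.83, 73.1, 66.9, 54.0 and 82.8 from extended class I to extended class II, and 5FdUR alone gave 0 bins lower and 50 genes higher and 0 lower, with 40.3, 37.0, 17, 33.9 and 39.3. UGI-expressing libraries alone had 21 genes higher and 0 lower. MMR deficient libraries alone had 37 bins higher and 2 lower, and 0 genes in either direction. With 70 assignments their smallest possible p was 0.0286 (exact permutation test). A gene could then be called only if a large part of all genes reached that value, so the 0 genes do not show a lost difference. Calls by non-overlap gave 0 bins lower, 33 genes higher and 0 lower, and windows of 2 kb around the gene start 3 and 0. Apart from the single drugs and the calls by non-overlap, the shares called over all bins or genes are not given here for the alternatives. Their counts therefore do not set the locus apart. Causes were not tested.

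Without each library in turn the ranges were 37 to 42 bins higher and 1 to 2 lower, 63 to 115 genes higher and 2 to 4 lower, 41.7 to 47.4 percentage points for the locus, 21.1 to 26.7 for extended class I, 51.2 to 60.7 for class I, 36.8 to 47.2 for class III, 41.7 to 46.9 for class II and 56.6 to 68.8 for extended class II. RTX lay above 5FdUR in 15 to 30 bins and below in 5 to 10, the highest counts being those without 5FdUR_UGI replicate 1. Non-overlap is easier to reach in any bin when a library is left out. Without 5FdUR_UGI_MMR replicate 2, 2 bins and 4 genes were lower, and without RTX_UGI replicate 2 RTX lay below in 8 bins.

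Replicate numbers did not pair the libraries across all conditions: the deviations of same-numbered libraries correlated at −0.283 to 0.210 over 21 pairs of conditions, 2 of them above 0.1. These 2 joined conditions of the same drug, at 0.197 for 5FdUR and 0.210 for RTX. Pairs of a 5FdUR with an RTX condition were at −0.283 to −0.173, and pairs with a non-treated condition at −0.0506 to 0.0419. With the replicate block 39 bins were higher and 1 lower, 78 genes higher and 2 lower, and the locus differed by 44.1 percentage points (adjusted p = 0.00313, exact permutation test).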
